A study of Drosophila melanogaster with 3 samples.

Results

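The muscle transcription factor genes twi, nau, lmd and Mef2 are 4 of the 13945 protein-coding genes on the 6 main arms of the Drosophila melanogaster genome (X, 2L, 2R, 3L, 3R and 4). They were chosen by name, and their peaks are those whose summit, the position of highest signal in a peak, lay in the gene body or within 10 kb of it. Peaks came from chromatin immunoprecipitation followed by sequencing (ChIP-seq) of Stripe, the zinc finger protein encoded by sr, fused to eGFP. All 3 libraries were biological replicates of a single group, whole embryos aged 8 to 24 hours from a transgenic strain with an sr-eGFP insertion that targets sr. The description in the labels names an anti-GFP antibody, whereas the antibody entry reads sr, and a further age entry far outside the stage range was not used. With a single group, there was nothing to compare the embryos with. Whole embryos mix muscle, tendon and all other cells, and the cells in which Stripe sat on a site were not measured.

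Twist, the product of twi, is a basic helix-loop-helix (bHLH) factor that specifies mesoderm in the early embryo and later acts in muscle precursors. Nautilus, from nau, is the fly member of the MyoD family of bHLH factors, and Lame duck, from lmd, is a Gli-type zinc finger factor of fusion-competent myoblasts that acts upstream of Mef2. Mef2 is the MADS-box factor that switches on muscle differentiation genes. Stripe belongs to the EGR family of zinc finger factors and is known for directing the fate of tendon cells, the epidermal cells to which embryonic muscles attach.

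The lists of each library came in 2 forms, a ranked list of all candidate peaks and a thresholded list drawn from it. Each thresholded peak had a global irreproducible discovery rate (IDR) of 0.01 or less, where a low IDR marks a peak that ranks alike in repeated sets of reads. On the arms, the ranked lists held 80968, 89049 and 87462 summits in replicates 1, 2 and 3, and the thresholded lists held 2751, 1678 and 3008. Slightly more ranked summits, 2847, 1748 and 3109, met that limit, and why the others are missing from the thresholded lists is not stated in the sources used here. Median signal, the value that the authors gave each peak, was 10.6, 10.2 and 10.8 over the ranked summits and 53.3, 52.6 and 56.3 over the thresholded ones. Merging thresholded summits that came within 200 bp of each other (100 bp to either side of each) gave 4000 regions, of which 1180 had a summit from all 3 libraries and are called shared. Sequencing depth is unknown, and the lists of the 3 libraries had 1 control file in common.

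Stripe peaks were unevenly spread over the 4 genes. Mef2 had 5 shared regions, twi and nau had 1 each, and lmd had none. Their windows held 12 merged regions in all, of which 7 were shared and 5 came from 1 library, and none came from exactly 2 libraries. So 3 of the 4 genes had a shared region, beside 23.5% of all protein-coding genes (3278 of 13945) with the same window. The windows of twi and Mef2 are long, at 83 kb and 65.4 kb, and those of nau and lmd are 25.5 kb each, beside a median of 22.2 kb over all genes. In the plot of shared regions per gene, Mef2 stood among the 22 genes with 5 or more, which are 0.158% of all genes.

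**Figure D1:**
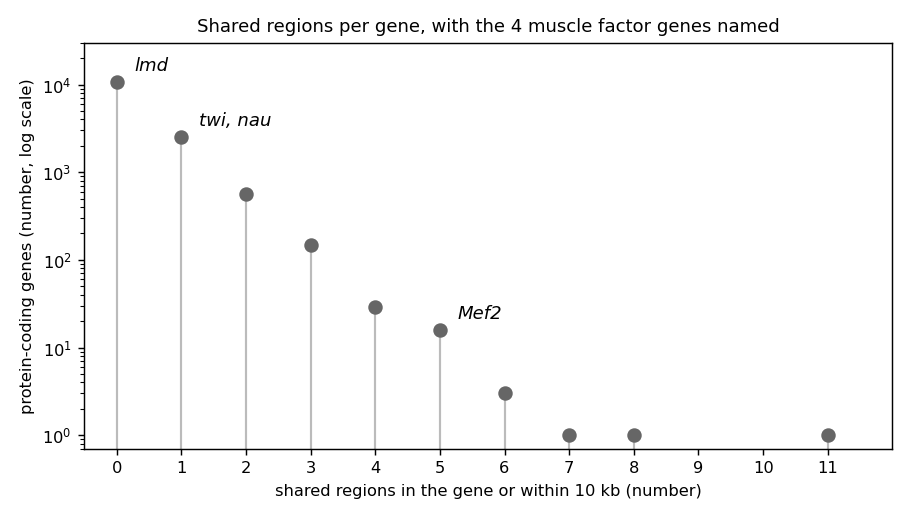
Number of protein-coding genes (vertical axis, log scale) by number of shared regions in the gene or within 10 kb (horizontal axis); a shared region has a thresholded summit from all 3 libraries. The value 0 holds 10667 genes including lmd, the value 1 holds 2516 including twi and nau, and the value 5 holds 16 including Mef2.

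Library by library, Mef2 had 5, 6 and 6 thresholded summits in replicates 1, 2 and 3. At twi and at nau the counts were 1, 1 and 2, and at lmd they were 0, 0 and 1. A thresholded summit was thus present at 3 of the 4 genes in replicate 1, at 3 in replicate 2 and at 4 in replicate 3. Among all protein-coding genes the share with a thresholded summit was 41.3% in replicate 1, 30.4% in replicate 2 and 44.7% in replicate 3. In the conservative list that the authors made from the 3 libraries together, Mef2 had 6 summits, twi 3, nau 2 and lmd 1. All 4 genes were therefore represented in it, as were 51.1% of all protein-coding genes. The ranked lists, which take in many weak summits, held 69, 93 and 82 summits at twi, 26, 23 and 25 at nau, 19, 25 and 26 at lmd and 67, 61 and 67 at Mef2. Per 10 kb of window this came to 7.45 to 11.2 summits over the 4 genes and 3 libraries, beside medians of 8.61, 8.19 and 8.29 over all genes. At lmd, with no shared region, the values were 7.45, 9.81 and 10.2 in replicates 1, 2 and 3, and at Mef2, with 5, they were 10.3, 9.33 and 10.3. The density at lmd was thus lower than at Mef2 in replicate 1 and close to it in replicates 2 and 3.

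**Figure D2:**
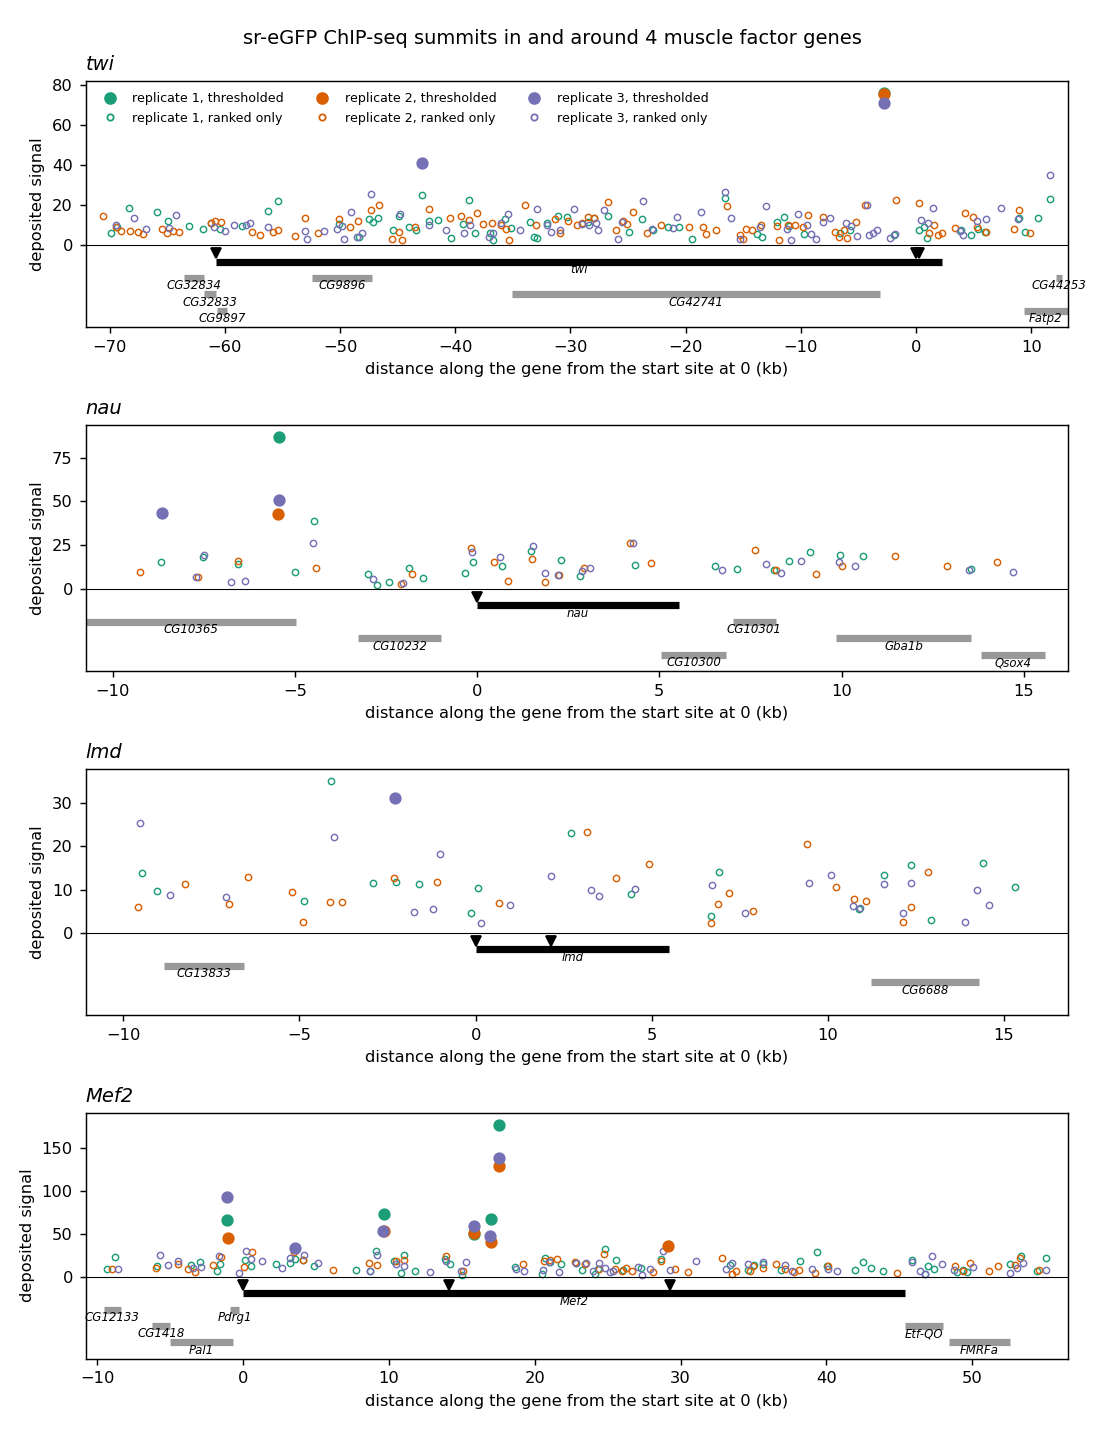
Deposited signal (vertical axes) of every ranked summit against distance from a start site of the gene in kb (horizontal axes, positive into the gene), with 1 panel for each gene and 1 colour for each replicate. Filled points passed the authors' threshold, open points are in the ranked list only, black bars are the gene itself with triangles at its start sites, and grey bars are neighbouring protein-coding genes. Filled points of 3 colours meet at 5 places for Mef2, at 1 for twi and 1 for nau, and at none for lmd.

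The order of the 4 genes by their strongest ranked summit began with Mef2, at 177, 129 and 139 in replicates 1, 2 and 3 (148 ± 25.5, SD, n = 3). The strongest summit of twi had signals of 75.9, 75.5 and 71.2 (74.2 ± 2.62, SD, n = 3), and that of nau 86.8, 43.0 and 51.0 (60.3 ± 23.3, SD, n = 3). For lmd the strongest summits reached only 35.2, 23.4 and 31.2 (29.9 ± 5.99, SD, n = 3). Every Mef2 value lay above every value of the other genes, and every lmd value lay below them. Neighbours in the order that overlapped were twi and nau, since nau was the higher of them in replicate 1 and the lower in replicates 2 and 3, with twi-to-nau ratios of 0.875, 1.76 and 1.39. Mef2 was 2.34, 1.71 and 1.95 times twi within the 3 libraries. The position of the strongest summit agreed within 6 bp across libraries at Mef2, within 15 bp at nau and within 39 bp at twi. At lmd the 3 libraries had their strongest summit at different places, spread over 7253 bp.

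When each gene's strongest ranked summit was placed among those of all protein-coding genes in the same library, Mef2 came at percentiles 98.5, 97.4 and 93.4. For twi the percentiles were 84.8, 90.7 and 78.4, and for nau 88.3, 75.03 and 66.2. For lmd they were 55.0, 41.3 and 45.8, close to the middle of all genes. Long windows have more chances of a high summit, so these percentiles also carry the window lengths given above.

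**Figure D3:**
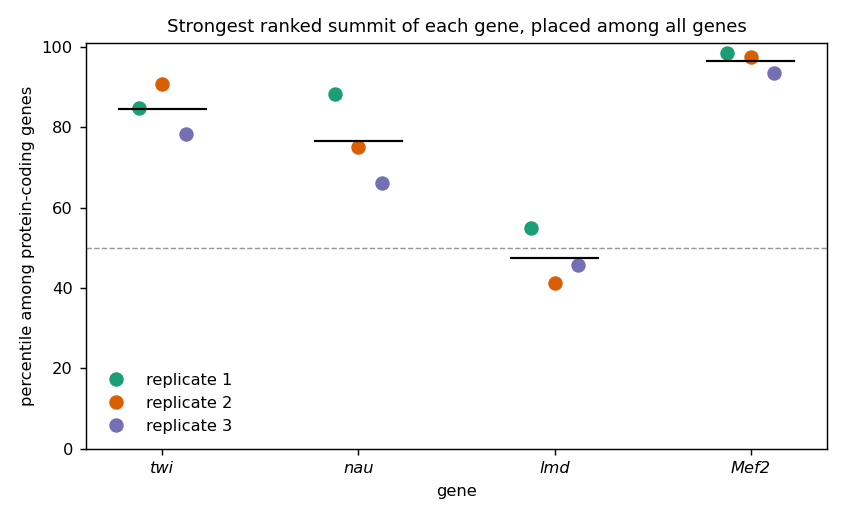
Percentile, among all 13945 protein-coding genes, of the strongest ranked summit in each gene's window (vertical axis) for the 4 genes (horizontal axis), with 1 point for each replicate and a bar at their mean; the dashed line is the 50th percentile. All points of Mef2 lie at 93.4 or above, those of twi and nau between 66.2 and 90.7, and those of lmd between 41.3 and 55.0.

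The gene twi (FBgn0003900, 2R 22985374 to 23048325, plus strand) is 63 kb long in the annotation because of 1 transcript with a far upstream start. Its other starts, at 23046108 and 23046322, lie at the far end of that span. Its shared region lay at 2R 23043149 to 23043454, inside the long twi intron, 2799 bp upstream of the start at 23046108. Signal there was 75.9 in replicate 1, 75.5 in replicate 2 and 71.2 in replicate 3, the highest and lowest differing by a ratio of 1.07. The 3 libraries were closer to each other here than at any of the other 6 shared regions. The same region lay 366 bp upstream of the start of CG42741, a gene on the opposite strand, so by nearest start it belongs to CG42741 and not to twi. Leaving out the long transcript kept the count at 1. No EGR core, GTGGGCG or GTGGGTG on either strand, lay within 100 bp of the centre, whereas 1 CATATG did, an E-box of the kind that bHLH factors such as Twist bind.

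A further region in the long intron, at 2R 23003107 to 23003370, was 17865 bp downstream of the far upstream twi start and 42869 bp upstream of the start at 23046108. The nearest protein-coding start was that of CG9896, 4355 bp away. Its summit passed the threshold in replicate 3 at a signal of 41.0, had 24.9 in the ranked list of replicate 1 and was missing from that of replicate 2. It was in both joint lists that were used, at 82.4 over the pooled libraries. Joint signals are on a higher scale: the twi shared region had 234 there, against 71.2 to 75.9 in single libraries. The conservative list added a summit at 2R 23057701 with a signal of 61.5, in an intron of the neighbour Fatp2, 9376 bp beyond the end of twi and 547 bp from the start of CG44253, the nearest. Neither place had a summit in all 3 ranked lists.

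The gene nau (FBgn0002922, 3R 23712814 to 23718357, minus strand) has 1 annotated start. Its shared region lay at 3R 23723667 to 23723941, 5450 bp upstream of the nau start. Signal there was 86.8, 43.0 and 51.0 in replicates 1, 2 and 3. Replicate 1 stood apart, at 2.02 times replicate 2, and within the thresholded lists the summit came at percentile 82.9 in replicate 1, 27.5 in replicate 2 and 40.03 in replicate 3. This place is also inside CG10365, a neighbour on the opposite strand, 476 bp downstream of a start of it, and CG10232 lies between it and nau. No EGR core was within 100 bp of the centre.

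The sequence at the nau shared region is shown because that region is the only shared one at nau, and that of the GAGAG-rich place next to it because its own summit in replicate 1 fell just outside the threshold. Both are the plus strand of the Release 6 genome from RefSeq, whose coordinates are those of dm6. Capitals mark CATATG in the one and GAGAG, or CTCTC on the other strand, in the other. Of E-boxes only CATATG and CACATG were searched for, and the nau shared region also holds cacgtg, an E-box left in lower case.
nau shared region, chr3R:23723732-23723882: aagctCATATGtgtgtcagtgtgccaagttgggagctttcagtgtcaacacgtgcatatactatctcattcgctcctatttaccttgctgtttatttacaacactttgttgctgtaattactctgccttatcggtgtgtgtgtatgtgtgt
nau upstream GAGAG place, chr3R:23722761-23722911: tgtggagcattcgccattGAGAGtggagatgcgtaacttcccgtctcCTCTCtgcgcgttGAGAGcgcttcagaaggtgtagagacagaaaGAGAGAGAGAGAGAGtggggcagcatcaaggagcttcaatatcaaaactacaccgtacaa

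The GAGAG-rich place was centred at 3R 23722836, 4479 bp upstream of the nau start and 495 bp upstream of that of CG10365. It was in both joint lists with a signal of 71.9, where the nau shared region had 183, but no library had it in its thresholded list. Signals in the ranked lists were 38.7, 11.9 and 26.1 in replicates 1, 2 and 3, with replicate 1 at 3.24 times replicate 2. In replicate 1 its IDR was 0.0100023, just above the limit of 0.01, and in replicates 2 and 3 the IDR was 0.840 and 0.147. Within 100 bp of its centre lay 9 GAGAG matches, counted on both strands with overlaps. The last nau region, at 3R 23726876 to 23727139 in a CG10365 intron, passed in replicate 3 at 43.6, against 15.2 in the ranked list of replicate 1 and no summit in replicate 2.

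The gene lmd (FBgn0039039, 3R 23021222 to 23026713, minus strand) had no shared region. Its window holds only 2 other protein-coding genes, and both of its peak places were intergenic and nearer to the lmd start than to that of any other protein-coding gene. The first, at 3R 23028855 to 23029118, was 2274 bp upstream of the start and passed the threshold in replicate 3, at a signal of 31.2 and an IDR of 0.00859. In replicates 1 and 2 a ranked summit was present at 11.8 and 12.6, beside medians of 10.6 and 10.2 over all ranked summits. Even in replicate 3 this was a weak peak, at percentile 3.16 of the thresholded list. The second place, centred at 3R 23030769 and 4056 bp upstream of the start, showed the reverse pattern. It was in both joint lists at 68.4, where the nau shared region had 183, but in no library's thresholded list. Its signals were 35.2 in replicate 1, 7.21 in replicate 2 and 22.2 in replicate 3, with IDR values of 0.0161, 0.728 and 0.166. Replicate 2 was thus below its ranked median there, and the highest and lowest libraries differed by a ratio of 4.88.

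The second lmd place held 2 EGR cores, both GTGGGCG, on opposite strands 57 bp to the left and 61 bp to the right of the centre. It was the only place at nau or lmd with a core, and its sequence is given for that reason. Beside it is the first lmd place, which has neither of the 2 searched forms. That place does hold gtgggca near its centre, which differs from GTGGGCG in its last letter and was not counted. Capitals mark the EGR core (CGCCCAC where it is on the other strand) and, once, GAGAG. The strand and source are as for nau.
lmd distal place, chr3R:23030694-23030844: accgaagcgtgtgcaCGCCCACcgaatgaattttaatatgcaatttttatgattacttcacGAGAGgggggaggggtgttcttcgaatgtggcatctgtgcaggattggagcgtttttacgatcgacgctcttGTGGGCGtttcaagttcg
lmd proximal place, chr3R:23028912-23029062: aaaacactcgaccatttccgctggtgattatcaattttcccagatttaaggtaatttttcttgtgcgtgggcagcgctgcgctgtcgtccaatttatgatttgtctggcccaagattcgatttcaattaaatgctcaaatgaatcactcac

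The gene Mef2 (FBgn0011656, 2R 9913496 to 9958858, minus strand) is 45.4 kb long and has starts at 9958858, 9944764 and 9929615. Of its 5 shared regions, 4 lay inside the gene and 1 beyond its outermost start. Over 18639 bp they formed a loose group, and the innermost 3 lay within 1716 bp of each other, 1 in the first exon of the transcripts from the second start and 2 in the sequence just downstream of it. Besides these, replicate 2 alone passed the threshold at the third start, and replicate 3 alone at an intronic place near the first start.

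The strongest Mef2 region lay at 2R 9941145 to 9941394, in an intron 3485 bp downstream of the second start. Signal was 177 in replicate 1, 129 in replicate 2 and 139 in replicate 3 (148 ± 25.5, SD, n = 3), and the IDR was 1e-05, the lowest value in the lists, in each. The summit ranked 61 of 80968, 105 of 89049 and 240 of 87462, at percentiles 98.0, 94.3 and 92.6 of the thresholded lists. Every other shared region at the 4 genes had a lower signal in each library. The highest of these values was 93.2 in replicate 3, beside 139, at the Mef2 region beyond the outermost start. The strongest region held 2 EGR cores, GTGGGCG on the minus strand 67 bp to the left of the centre and GTGGGTG on the plus strand 26 bp to the right.

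In the same intron, 607 bp towards the second start, lay a shared region at 2R 9941740 to 9942045. Its signals were 67.9, 40.3 and 47.7 in replicates 1, 2 and 3 (51.9 ± 14.3, SD, n = 3). It held 1 EGR core, GTGGGCG, 35 bp from the centre. The third of this group, at 2R 9942858 to 9943130, was centred in the 5′ untranslated region, 82 bp inside the 1852 bp exon of the second start and 1769 bp downstream of that start. Signals there were 50.2, 51.3 and 59.4 (53.6 ± 5.05, SD, n = 3), and no core was found. These neighbours overlapped in signal, and which was the higher changed from replicate 1 to the other libraries.

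Upstream of the second start by 4447 bp, in the intron of the longer transcripts, a shared region at 2R 9949068 to 9949366 had signals of 73.2, 52.9 and 53.2 (59.8 ± 11.6, SD, n = 3). The outermost region, at 2R 9959771 to 9960064, was 1060 bp upstream of the first Mef2 start, inside the neighbour Pal1 and 160 bp upstream of one of its starts. A further neighbour, Pdrg1, lies between this region and the Mef2 start and is thus nearer to the region than Mef2 is. Signals at the outermost region were 65.7, 45.7 and 93.2 (68.2 ± 23.9, SD, n = 3), with replicate 3 the highest, unlike the 3 intronic regions, where replicate 1 was the highest. Neither place held an EGR core. Apart from the strongest region, the order of the Mef2 regions was not stable: the second highest was the one 4447 bp upstream of the second start in replicates 1 and 2, and the outermost one in replicate 3.

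**Figure D4:**
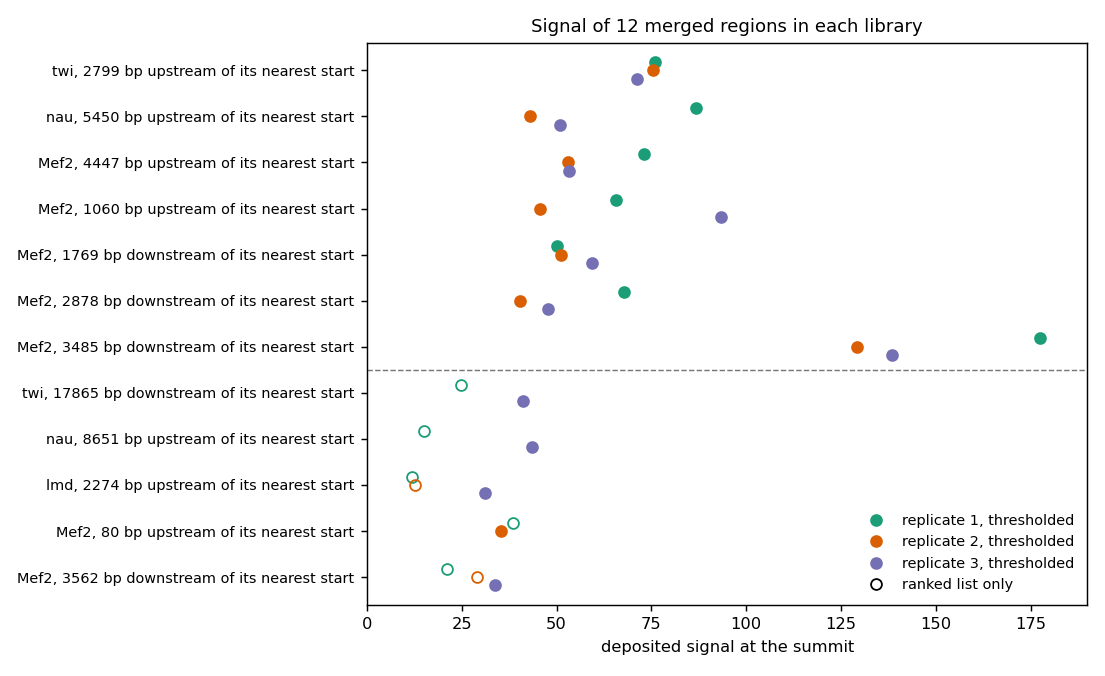
Deposited signal (horizontal axis) in each replicate at the 12 merged regions of the 4 genes, each named by its distance in bp from the nearest start site of the same gene; the 7 shared regions stand above the dashed line and the 5 from 1 library below it. Filled points passed the authors' threshold and open points are in the ranked list only; the Mef2 region 3485 bp downstream of a start lies at 129 to 177, and the other shared regions at 40.3 to 93.2.

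The regions of 1 library at Mef2 were weaker. At the third start, 80 bp upstream, replicate 2 had 35.5 with an IDR of 0.00168, and replicate 1 had 38.6, a higher signal, with an IDR of 0.0203. Replicate 3 had no ranked summit within 100 bp. In an intron, 3562 bp downstream of the first start, replicate 3 had 33.8 and passed, while replicates 1 and 2 had 21.1 and 29.1 and did not. That place held 8 GAGAG matches and no EGR core. The joint lists added 4 places, of which those centred at 2R 9930139, 9934066 and 9944976 were in the longest joint list and that at 9949670 was in the conservative list. Mean ranked signals at these 4 places were between 21.1 and 23.0, and 2 of them, at 9930139 and 9934066, held 1 EGR core each.

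Stripe summits at the 4 genes were mostly away from the genes' own start sites. Of their 9 annotated starts, 1 had a thresholded summit within 500 bp in any library, the third start of Mef2. By that rule 1 of the 4 genes was called, beside 12.3% of all protein-coding genes. At the nau start the strongest ranked summits within 500 bp had signals of 15.4, 23.6 and 21.0 in replicates 1, 2 and 3, all upstream of it. At the second start of Mef2 they were 20.6, 24.4 and 18.4, and at the first 19.996, 10.9 and 29.7. At the twi start at 23046108 they were 7.82, 21.1 and 12.6, and the first lmd start had 10.4 in replicate 1, none in replicate 2 and 2.33 in replicate 3. None of these summits passed the threshold.

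An EGR core was found in 2 of the 7 shared regions of the 4 genes, both at Mef2, beside 579 of all 1180 shared regions (49.1%). Over merged regions it was 2 of 12, beside 35.5% of all 4000. CATATG was in 2 of the 7, the shared regions of twi and nau, beside 5.85% of all shared regions. GAGAG was in 1 of the 7, beside 36.6%, and neither CACATG, found in 13.1%, nor the MEF2 consensus, found in 6.36%, was in any. With 7 regions these shares are counts and no more, and a match describes letters in a window rather than binding by a factor.

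The number of shared regions at Mef2 was read against gene length and local density. In the whole set, 368 genes were longer than Mef2, and 6 of them had 5 or more shared regions. The 22 genes with 5 or more belong to 16 separate loci once overlapping windows are joined, and Mef2 is a locus of its own. Counted per 10 kb of window, Mef2 had 0.765 shared regions, nau 0.391, twi 0.121 and lmd 0, beside 0.0881 over the arms as a whole. By this density 523 genes, or 3.75% of all, were above Mef2. The twi density rests on the long window set by its far upstream transcript and is not given without it, so its place below nau depends on the annotation. The windows of neighbouring genes share regions, so these genes are not independent of each other.

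Genes most like each of the 4 were taken as those with the same number of shared regions and the closest percentile of the strongest summit over the 3 libraries. For Mef2, among 15 candidates, they were SNF4Agamma, with signals of 149, 120 and 151 and a mean difference of 1.17 percentile points, and then Atat and MTF-1, which have 1 summit in common, at 1.26. For twi, among 2514 candidates, they were CG9003 and atos at 0.832, again with a summit in common, and Arr2 at 0.950. For nau, among 2511, they were dx at 1.36 and CG4119 and CG42449 at 1.45, and for lmd, among 10660, CG30114 at 0.208 and insc and sktl at 0.431.

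Other muscle factor genes, 43 in 3 lists, had shared regions at 15 (34.9%), beside 23.5% of all genes. Their median window was 28.5 kb, longer than the 22.2 kb of all genes. None had 5 or more shared regions, and the most was 2, at Six4, zfh1 and ttk. For these genes only 1 of the 2 regions is described below. Of 14 early mesoderm factor genes, 7 had one (50%), with a median count of 0.5 beside 0 over all genes. Among these, slp1 and slp2, which encode forkhead factors, had 1 region in common at 124 ± 11.3 (SD, n = 3). Those at bin, another forkhead gene, and at Poxm, a Pax-type gene, reached 114.7 ± 13.9 and 113 ± 11.5 and lay 94 bp and 105 bp from the gene's start, unlike any shared region of the 4 genes. At zfh1, a zinc finger and homeobox gene, the signal was 103 ± 26.3 (SD, n = 3). At Six4, a homeobox gene, it was 74.6 ± 18.7 (SD, n = 3), nearest to the start of tzn.

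Of 18 muscle identity factor genes, which give single muscles their character, 5 had a shared region (27.8%). They were vg (81.7 ± 6.998), sd (68.0 ± 14.1), caup (63.6 ± 14.8), Ptx1 (58.5 ± 11.97) and Dr (57.8 ± 22.5; SD, n = 3 for each). The genes vg and sd encode partners, Vestigial and the DNA-binding Scalloped. The sd region lay 153 bp from the sd start, so a place near the gene's own start was not limited to bin and Poxm. Of 11 partners and modulators of Twist, Nautilus and Mef2, 3 had one (27.3%), at opa (81.2 ± 17.2), N (53.3 ± 19.8) and ttk (52.4 ± 12.3; SD, n = 3 for each). All of these named regions lay below the strongest Mef2 region in mean signal. In replicate 2, however, the region of slp1 and slp2 had 131, beside 129 at Mef2. By mean signal, the regions at slp1 and slp2, bin, Poxm, zfh1 and vg lay above the shared regions of twi and nau. Those of opa and Six4 did so too, but exceeded twi by less than their own spread. Single libraries differed: in replicate 1, opa at 69.9 was below twi at 75.9, and vg at 85.0 below nau at 86.8. In replicate 2, vg at 73.7 was below twi at 75.5. The medians of the identity and partner lists were 0 shared regions, as over all genes.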

How the data were processed

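The authors deposited, for each of the 3 libraries, ranked and thresholded peak lists on dm6, made per the deposited text notes with an IDR filter from that library's own alignment and 1 common control. Neither the aligner nor the software that called peaks is given in the sources used here. Signal is the authors' value for a peak, deposited without a stated normalization; it was ranked within lists and otherwise describes peaks. The −log10 of the global IDR, deposited in the ranked lists, was converted to IDR. Of the authors' joint lists, the conservative and the longest were used. Depth is unknown, so list length limits the precision.

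Thresholded summits of the 3 libraries were merged where windows of 100 bp to either side of each met, with the centre at the mean position of the libraries' best summits. The value of a library at a place is its strongest ranked summit within 100 bp. Genes and starts came from Ensembl release 115, whose Release 6 coordinates are those of dm6; a promoter reached 500 bp from a start. Motifs were searched on both strands within 100 bp of centres. Printed sequences span 75 bp on each side and overlap no annotated exon. With 1 group there was no test, and the labels' replicates carry only their own spread. The members, gene lists and alternatives were chosen with earlier results of these data known. Named genes are the 4 members, neighbouring genes that overlap or lie nearer to one of their regions, at most 6 genes per other list by mean signal percentile, and the 3 most alike each member. Merging and motif search were tested on simulated data. Alternatives covered window, IDR limit, merging width, number of libraries, joint lists, assignment by nearest start and each left-out replicate. Python 3.11.15, numpy 2.4.6, scipy 1.17.1 and matplotlib 3.10.9 were used.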

Additional observations from a re-analysis of the deposited data

How the results depend on the processing

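Of 115 recomputed counts, 87 stayed within 1.5 times the reported one. Leaving out 1 replicate put the mean signal between 134 and 158 at the strongest Mef2 region, 73.3 and 75.7 at the twi region and 47.0 and 68.9 at the nau region, and a wider lookup around the centre gave the same means. Leaving out any replicate kept 5 shared regions at Mef2, 1 at twi, 1 at nau and 0 at lmd. That asks fewer libraries to agree, and no region at the 4 genes came from exactly 2 libraries. These counts, which are among the 87, therefore had little room to change and do not test stability. With windows of 1 kb and of 5 kb, nau had 0, since its region lies 5450 bp away. The number of genes with a shared region was then 1127 and 2097, and 5212 at 20 kb, and that of other muscle factor genes was 9 at 1 kb. At an IDR of 0.001, Mef2 had 3 and nau 0, and 1 member region held the EGR core. With a summit in 2 or more libraries sufficing, 5052 genes and 23 other muscle factor genes had a region. Under the conservative list, counts were 3 at twi, 2 at nau and 1 at lmd, with 7125 genes and 31 other muscle factor genes. Under the longest list they were 10 at Mef2, 2 at twi, 3 at nau and 1 at lmd, with 5 member regions holding the core, 7994 genes and 31 other muscle factor genes. Counting only regions nearest to the gene's own start left 0 at twi, 0 at nau and 4 at Mef2, so 1 of the 4 genes had any, and 916 genes in all. Asking for a ranked summit in every library and a threshold pass in 1 or more, an alternative added after seeing the data, gave 1 at lmd, as its place in replicate 3 has weak summits in the other libraries. Leaving out the long twi transcript, also added after seeing the data, kept 1 at twi. Differences between windows, lists and limits follow from how each was made, and other causes were not tested. No paired analysis was possible because all libraries belong to 1 group. Depth is unknown and limits all counts, and the part that the common control file plays in agreement between libraries was not tested.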
